A study of Homo sapiens with 60 samples.

Results

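The 10 genes described here are markers of the absorptive intestinal cell together with members of the carcinoembryonic antigen family: CEACAM1, CEACAM5, CEACAM6, CEACAM7, KRT20, FABP1, VIL1, CDH17, CDX2 and HNF4A. They were picked by gene symbol, and each matched 1 of the 60675 Ensembl genes of the count table. All 10 passed the filter on low counts and are among the 16608 genes tested. RNA was sequenced from HT29 cells, an established human line from a colorectal adenocarcinoma, 24 h after addition of water extracts of 6 medicinal plants, in 60 libraries that form 20 groups of 3. Wortmannin, an inhibitor of phosphoinositide 3-kinase, was the positive control at 10 µM. Extracts of fresh ginger (Zingiberis Rhizoma Recens), ginger (Zingiberis Rhizoma), Pinelliae Tuber, Scutellariae Radix and Zizyphi Fructus were given at 20, 100 and 500 µg/mL, called low, medium and high below. The doses of Coptidis Rhizoma were 11.6, 58 and 290 µg/mL, its highest being the dose that inhibits the cells by 20%, per the series text. Vehicle cells received DMSO, for which the labels of the samples give 0.1% and the text of the series 2%. All groups are the same cancer line grown as a culture of 1 cell type, with no normal colon tissue beside it.

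Absorptive cells of the intestine arise from crypt stem cells and, as they move up the crypt, build a brush border of microvilli, switch on transporters and enzymes and put adhesion molecules on their surface. HT29 cells are largely undifferentiated in ordinary glucose medium and are known to take on parts of this programme under changed culture conditions. CDX2, a homeobox factor that sets intestinal identity, and HNF4A, a nuclear receptor, drive many absorptive genes. CEACAM5 (carcinoembryonic antigen, the serum marker of colorectal cancer), CEACAM6 and CEACAM7 are glycoproteins held in the membrane by a lipid anchor, whereas CEACAM1 spans the membrane and carries an inhibitory signalling tail. KRT20 is a keratin of differentiated surface epithelium, VIL1 (villin) bundles actin in microvilli, CDH17 is the liver-intestine cadherin and FABP1 carries fatty acids in the cytosol.

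The 4 CEACAM genes lie on the long arm of chromosome 19 and descend from a common ancestor, so their promoters are shown as the sequence that the family members share and differ in. Each line gives 250 bases before to 50 bases after the transcription start of the RefSeq gene on GRCh38.p14, written 5′ to 3′ on the gene's strand, with capitals marking CACGTG, the E-box letters that USF factors are known to bind.
CEACAM5 (chr19:41708376-41708675, plus strand): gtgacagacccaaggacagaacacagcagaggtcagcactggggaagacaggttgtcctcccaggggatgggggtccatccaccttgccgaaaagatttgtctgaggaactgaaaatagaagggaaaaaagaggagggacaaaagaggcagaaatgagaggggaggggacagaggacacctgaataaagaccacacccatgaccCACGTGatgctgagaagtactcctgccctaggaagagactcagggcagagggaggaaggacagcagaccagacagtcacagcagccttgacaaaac
CEACAM6 (chr19:41755280-41755579, plus strand): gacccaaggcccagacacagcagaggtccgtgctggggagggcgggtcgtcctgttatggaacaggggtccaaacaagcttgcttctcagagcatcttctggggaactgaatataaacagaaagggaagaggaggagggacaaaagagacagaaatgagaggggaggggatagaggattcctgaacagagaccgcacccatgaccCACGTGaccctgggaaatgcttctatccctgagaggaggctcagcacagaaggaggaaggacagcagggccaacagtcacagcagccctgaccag
CEACAM7 (chr19:41688221-41688520, minus strand): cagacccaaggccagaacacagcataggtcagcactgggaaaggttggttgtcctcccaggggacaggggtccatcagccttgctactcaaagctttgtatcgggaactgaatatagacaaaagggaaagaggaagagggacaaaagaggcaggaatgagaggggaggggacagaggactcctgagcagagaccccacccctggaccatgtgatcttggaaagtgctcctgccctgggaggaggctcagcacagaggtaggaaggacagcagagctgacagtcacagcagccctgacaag
CEACAM1 (chr19:42528432-42528731, minus strand): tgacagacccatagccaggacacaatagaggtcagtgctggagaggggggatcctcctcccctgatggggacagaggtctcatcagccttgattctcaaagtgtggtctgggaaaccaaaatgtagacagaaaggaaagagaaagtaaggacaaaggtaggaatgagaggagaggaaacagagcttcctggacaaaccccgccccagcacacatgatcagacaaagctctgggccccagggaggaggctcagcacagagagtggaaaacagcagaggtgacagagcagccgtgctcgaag
The CEACAM5 promoter held CACGTG with its first base at position -46 from the transcription start, and the CEACAM6 promoter at -45. These letters did not occur in the windows of CEACAM7 and CEACAM1. CACGTG reads the same on both strands, and 7.26% of the 35116 promoters of the RefSeq table held it. In pairwise alignment the CEACAM5 window shared 74.7% of its columns with that of CEACAM6, 81.4% with CEACAM7 and 64.9% with CEACAM1. The CEACAM6 window shared 80.5% with CEACAM7 and 68.2% with CEACAM1, and CEACAM7 shared 71.2% with CEACAM1. Of the 6 pairs, CEACAM5 and CEACAM7 were the most alike over the whole window. A match is a description of the window and was not measured as binding. Of the 10 genes, 8 have a promoter in that table. TTTAT, letters found in CDX2 sites, was searched on both strands and occurred in the promoters of CEACAM5, CEACAM6, KRT20, FABP1 and CDX2, against 34.9% of all promoters. CAAAG, letters found in HNF4A sites, occurred in those of CEACAM1, CEACAM7, KRT20, FABP1 and CDX2, against 47.5% of all promoters.

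Libraries held 11.1 to 34.4 M counts (M, 1000000), with a median of 23.4 M. On the second principal component, which held 8.55% of the variance, 4 libraries stood apart from the rest: Fresh ginger low replicate 1, Ginger high replicate 2, Zizyphi Fructus high replicate 3 and Vehicle replicate 1. Ribosomal protein genes took 5.85%, 5.90%, 7.57% and 6.39% of their counts in that order. Where a call of the 10 genes changes without these libraries, the value without them is given beside it. The titles of all samples used here name the same batch, BatchA. The opening part of the sample codes differs and is called a code set here, although the labels do not say what it stands for. Wortmannin has a set of its own, and so has vehicle. The gingers share one set, Scutellariae Radix and Pinelliae Tuber another, and Zizyphi Fructus and Coptidis Rhizoma another. Treatment and code set cannot be told apart in any comparison with vehicle, whereas both doses of a dose comparison come from the same set. Nothing in the labels states that a group's 3 libraries are independent cultures. The p-values measure the spread between libraries of the same group, estimated over all 20 groups together, and this spread may be technical. Levels are CPM, the count of a gene in 1000000 counts after TMM scaling. In such bulk libraries fewer cells with a transcript and less transcript per cell cannot be told apart. A gene is called at a Benjamini-Hochberg adjusted p below 0.05 over all genes tested with edgeR, and the value after ± beside each log2 change is its approximate standard error (SE). Genes with an unadjusted p under 0.05, or whose groups do not overlap, are described without the share of all genes that do the same. Such counts are therefore no sign that the 10 genes stand out.

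The 10 genes spanned a wide range of levels. Per kilobase of exon, the median over the 60 libraries was 141 CPM for KRT20, 26.3 for VIL1, 23.6 for CEACAM1, 13.3 for HNF4A and 11.4 for CEACAM6. It was 1.93 CPM per kilobase for CEACAM5, 1.44 for CDH17, 1.42 for CDX2, 0.705 for FABP1 and 0.192 for CEACAM7. The structural keratin thus stood far above the fatty acid carrier and the colonocyte antigen CEACAM7, whose counts were 3 to 23 per library. FABP1 had 9 to 72 counts per library, and CEACAM5 42 to 336. The median spread within a group was smallest for VIL1, with a coefficient of variation of 2.49%, and largest for CEACAM7, with 19.3%. Markers of other intestinal cell types were present at varied levels. Of the stem cell markers, LGR5 had a median of 32.7 CPM, AXIN2 of 76.0 and RNF43 of 312, while OLFM4 had a median of 0. Of the goblet cell markers, AGR2 had a median of 191 CPM, the mucin MUC2 of 34.2, FCGBP of 32.6, REG4 of 22.5 and SPDEF of 20.8, while CLCA1 and ZG16 had medians of 0. CHGA and CHGB of enteroendocrine cells had medians of 0.0572 and 0 CPM, whereas NEUROG3 and TPH1 of that list had 0.971 and 0.660. Of the stromal, endothelial and immune markers, CD68 had a median of 7.89 CPM, PECAM1 of 1.72 and COL1A1 of 1.25. The rest of that list had medians of at most 0.0338 CPM, and MS4A1 of B cells was at 0 in all 60 libraries. LYZ, a Paneth cell enzyme, had a median of 1742 CPM, whereas the Paneth defensins DEFA5 and DEFA6 had medians of 0. Mature colonocyte genes were split as well. HSD17B2 had a median of 33.8 CPM, CA2 of 17.8, the sulfate transporter SLC26A2 of 8.21 and PLAC8 of 5.17, while AQP8, SLC26A3, MS4A12 and OTOP2 had medians of 0.

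Some reads of these genes can be shared. All positions are those of GENCODE 29 on GRCh38. CEACAM5 (chr19:41708585-41729798, plus strand) and CEACAM6 (chr19:41750977-41772208, plus strand) both overlap AC243967.1, a readthrough model on the same strand with a median of 6.83 counts. Of all 100-base exon windows, 12.6% in CEACAM5 and 1.73% in CEACAM6 occurred also in that model, and CEACAM5 had counts that were not whole in 50 of 60 libraries. CEACAM1 (chr19:42507304-42561234, minus strand) shares 0.301% of its windows with CEACAM3, which was at 0 in 50 libraries, and lies opposite LIPE-AS1. CEACAM7 (chr19:41673307-41706976, minus strand), KRT20 (chr17:40875941-40885227, minus strand) and FABP1 (chr2:88122982-88128116, minus strand) shared no window. VIL1 (chr2:218419092-218453295, plus strand) overlaps exons of USP37 on the opposite strand, which had a median of 575 counts. VIL1 shared no window in a search of transcripts on their own strands, yet its counts were not whole in 60 of 60 libraries. Whether reads were counted by strand is not given in the sources used here, so a part of the VIL1 counts can belong to USP37. The source of its fractional counts was not tested. CDH17 (chr8:94127171-94217303, minus strand), CDX2 (chr13:27962137-27971139, minus strand) and HNF4A (chr20:44355700-44434596, plus strand) had whole counts in all libraries.

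**Figure D1:**
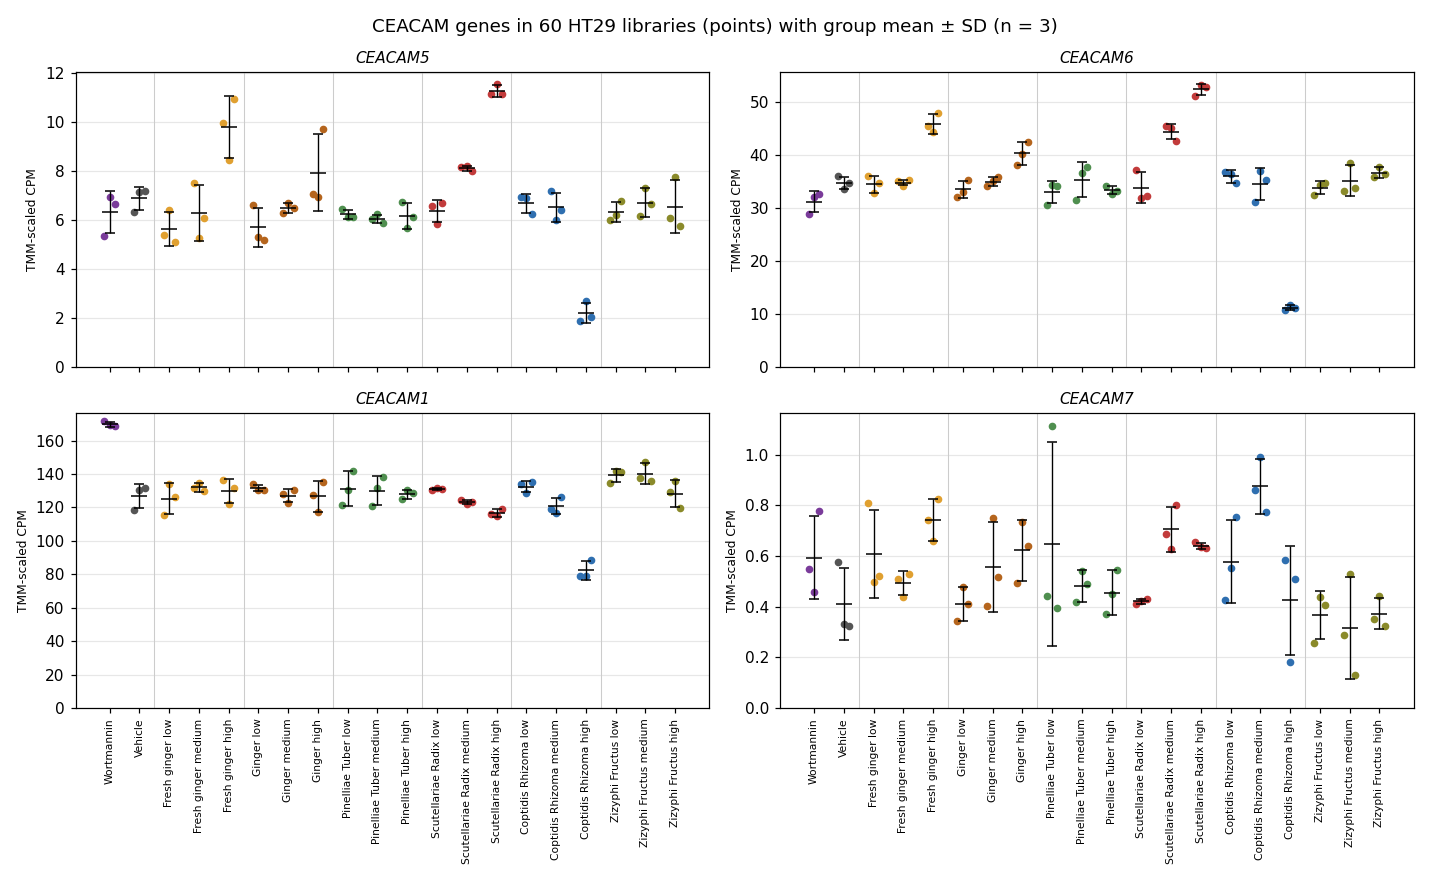
Level of CEACAM5, CEACAM6, CEACAM1 and CEACAM7 in each of the 60 libraries, in TMM-scaled CPM on axes that start at 0, with points for libraries and bars for the group mean ± SD (n = 3). CEACAM5 and CEACAM6 were highest in Scutellariae Radix high and lowest in Coptidis Rhizoma high, and CEACAM1 was highest in wortmannin.

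Scutellariae Radix raised the lipid-anchored antigens CEACAM5 and CEACAM6 and the keratin KRT20, and lowered villin. High against low dose called 7 of the 10 genes, 4 higher and 3 lower, where 16.3% of all genes tested were called (7.92% higher and 8.42% lower). The median change of the 10 genes was 0.14 on the log2 scale, against -0.01 over all genes. CEACAM6 had 51.1, 53.2 and 52.8 CPM at the high dose, against 37.1, 31.9 and 32.3 CPM at the low dose. All high-dose libraries lay above all low-dose libraries, with a log2 change of 0.64 ± 0.06 and an adjusted p of 1.92e-11. CEACAM5 had 11.1, 11.5 and 11.1 CPM at the high dose and 6.58, 5.85 and 6.69 CPM at the low dose. Its groups did not overlap either, and its log2 change was 0.82 ± 0.12 (adjusted p = 3.54e-07). For KRT20 the high dose gave 391, 377 and 368 CPM, against 266, 247 and 259.9 CPM at the low dose. This was the highest KRT20 level of the 20 groups, and the log2 change was 0.56 ± 0.04 (adjusted p = 2.47e-14). VIL1 had 144, 146 and 147 CPM at the high dose and 191, 178 and 186 CPM at the low dose, so all high-dose libraries lay lower. Its log2 change was -0.35 ± 0.04 (adjusted p = 2.03e-09). These 4 calls held when any of the 6 libraries was left out.

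The other 3 calls of Scutellariae Radix were smaller or rested on fewer counts. CDH17 averaged 7.02 ± 0.484 CPM at the high dose and 5.52 ± 0.706 CPM at the low dose (SD, n = 3 each), a log2 change of 0.35 ± 0.12 with an adjusted p of 0.0378. Its call ended without Scutellariae Radix high replicate 2 or 3 (adjusted p = 0.140 and 0.0558) and without low replicate 2 or 3 (0.212 and 0.0953). CDX2 averaged 4.42 ± 0.114 CPM at the high dose and 5.65 ± 0.223 CPM at the low dose, a log2 change of -0.36 ± 0.13 (adjusted p = 0.0443). CEACAM1 averaged 117 ± 2.30 CPM at the high dose and 131 ± 0.750 CPM at the low dose, a log2 change of -0.17 ± 0.06 (adjusted p = 0.0328). For both genes the groups did not overlap, but the call ended when any 1 of the 6 libraries was left out, with adjusted p of 0.0594 to 0.135 for CDX2 and 0.0701 to 0.132 for CEACAM1. With no filter on low counts the calls of CDH17, CDX2 and CEACAM1 also ended (adjusted p = 0.0840, 0.11 and 0.149). The CDX2 call ended with the DESeq2 Wald test too (adjusted p = 0.0598). HNF4A had a log2 change of -0.07 (95% interval -0.21 to 0.07), FABP1 -0.06 (-0.55 to 0.43) and CEACAM7 0.60 (-0.08 to 1.28), and none of these was called.

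At the medium dose of Scutellariae Radix, CEACAM6 and KRT20 were called higher and VIL1 lower. Medium against low dose called 3 of the 10 genes, 2 higher and 1 lower, where 3.35% of all genes were called (1.78% higher and 1.57% lower). CEACAM6 had 45.5, 45.0 and 42.7 CPM at the medium dose, against 37.1, 31.9 and 32.3 CPM at the low dose, a log2 change of 0.40 ± 0.06 (adjusted p = 1.65e-05). KRT20 changed by 0.15 ± 0.04 (adjusted p = 0.0451) and VIL1 by -0.14 ± 0.04 (adjusted p = 0.0444). Both of these calls depended on single libraries and ended in a fit of only the 6 libraries compared (adjusted p = 0.0924 and 0.107). The KRT20 call ended without medium replicate 1 or 3 and without low replicate 2 or 3 (adjusted p = 0.0958 to 0.271). The VIL1 call ended without medium replicate 1, 2 or 3 and without low replicate 1 or 3 (adjusted p = 0.0916 to 0.256). CEACAM5 averaged 6.37 ± 0.457, 8.11 ± 0.109 and 11.3 ± 0.238 CPM at the low, medium and high dose (SD, n = 3 each). Its medium dose did not overlap the low dose but missed the threshold, with a log2 change of 0.35 ± 0.12 and an adjusted p of 0.112. CDH17, at 0.38 ± 0.12 and not called (adjusted p = 0.0626), was called without the 4 libraries that stood apart (0.38, adjusted p = 0.0433) and without low replicate 1 (0.46, adjusted p = 0.0393).

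Against vehicle, Scutellariae Radix high called 6 of the 10 genes, 4 higher and 2 lower, where 20.3% of all genes were called (9.72% higher and 10.6% lower). CEACAM5 had a log2 change of 0.70 ± 0.12, CEACAM6 of 0.60 ± 0.06, KRT20 of 0.57 ± 0.04 and VIL1 of -0.33 ± 0.04. CDH17 changed by 0.36 ± 0.12, and its call ended without high replicate 2 (adjusted p = 0.0912) or Vehicle replicate 2 (0.117). CDX2 changed by -0.40 ± 0.13, and its call ended without high replicate 1 or 3 or Vehicle replicate 2 or 3 (adjusted p = 0.0594 to 0.0812). CEACAM1 was not called (log2 change -0.12, adjusted p = 0.121), but was called without the 4 libraries that stood apart (-0.15, adjusted p = 0.0274). Scutellariae Radix medium called 3 genes, all higher, where 6.64% of all genes were called (3.56% higher and 3.08% lower): CEACAM6 at 0.36 ± 0.06, KRT20 at 0.16 ± 0.04 and CDH17 at 0.39 ± 0.12. Of these, the CDH17 call ended without Vehicle replicate 1 or 2 or medium replicate 1 or 3 (adjusted p = 0.0507 to 0.146), and the KRT20 call without Vehicle replicate 2 (0.0629) or medium replicate 3 (0.0645). Both ended in a fit of only the 6 libraries compared (0.0731 for CDH17 and 0.149 for KRT20), and that of KRT20 with no filter (0.0859). VIL1, at -0.12 and not called (adjusted p = 0.0582), was called without the 4 libraries (-0.15, adjusted p = 0.00933), without Vehicle replicate 1 (adjusted p = 0.0338) and with the DESeq2 Wald test (0.0339). Comparisons of all treatments with vehicle use the same 3 vehicle libraries.

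Pinelliae Tuber was given at the same doses and shares its code set with Scutellariae Radix, and its high dose called 0 of the 10 genes against its low dose by edgeR, where 0.0421% of all genes were called. At an unadjusted p under 0.05 the number was also 0, as it was with DESeq2. CEACAM6 had 34.2, 32.7 and 33.3 CPM at the high dose and 30.5, 34.4 and 34.1 CPM at the low dose, which overlap. The 95% interval of its log2 change was -0.12 to 0.14. The change with dose was then compared between the extracts as an interaction. The difference, Scutellariae Radix minus Pinelliae Tuber, passed the threshold for 4 of the 10 genes, 3 higher and 1 lower, where 6.32% of all genes did (2.99% higher and 3.33% lower). It was 0.82 ± 0.17 for CEACAM5 (adjusted p = 7.79e-04), 0.63 ± 0.09 for CEACAM6 (adjusted p = 1.05e-06), 0.61 ± 0.06 for KRT20 (adjusted p = 2.65e-10) and -0.30 ± 0.06 for VIL1 (adjusted p = 2.04e-04).

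At its high dose Coptidis Rhizoma lowered CEACAM1, CEACAM5, CEACAM6, FABP1, VIL1 and HNF4A and raised KRT20 and CDX2. High against low dose called 8 of the 10 genes, 2 higher and 6 lower, where 52.4% of all genes were called (27.1% higher and 25.3% lower), so calls were common across the whole transcriptome. The median change of the 10 genes was -0.58 on the log2 scale, against 0.00 over all genes. CEACAM6 had 10.7, 11.7 and 11.2 CPM at the high dose, against 36.9, 36.4 and 34.7 CPM at the low dose. It was lower in each high-dose library than in any other library of the 60, with a log2 change of -1.68 ± 0.07 (adjusted p = 1.48e-26). CEACAM5 had 1.89, 2.67 and 2.04 CPM at the high dose and 6.92, 6.90 and 6.23 CPM at the low dose. The groups did not overlap, and the log2 change was -1.60 ± 0.14 (adjusted p = 3.21e-14). FABP1 had 0.404, 0.505 and 0.476 CPM at the high dose, from 9, 14 and 14 counts, and 1.96, 1.78 and 1.59 CPM at the low dose, from 55, 58 and 40 counts. Its log2 change was -1.92 ± 0.29 (adjusted p = 1.32e-07), and these were the lowest 3 of the 60 libraries.

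CEACAM1, the transmembrane member, had 79.3, 78.9 and 88.7 CPM in Coptidis Rhizoma high and 134, 129 and 135 CPM in Coptidis Rhizoma low. The log2 change was -0.69 ± 0.06 (adjusted p = 5.18e-15), smaller in size than those of CEACAM5 and CEACAM6. HNF4A had 59.3, 68.4 and 60.3 CPM at the high dose and 101, 95.7 and 101 CPM at the low dose, a log2 change of -0.67 ± 0.07 (adjusted p = 7.06e-12). VIL1 had 130.4, 133 and 135 CPM at the high dose and 185, 184 and 188 CPM at the low dose, a log2 change of -0.48 ± 0.04 (adjusted p = 8.21e-15). In none of these 3 genes did the doses overlap. The genes called higher were the keratin and the homeobox factor. KRT20 had 299, 299 and 312 CPM at the high dose and 243, 247 and 250.3 CPM at the low dose, a log2 change of 0.30 ± 0.04 (adjusted p = 1.31e-07). CDX2 had 9.56, 7.65 and 7.45 CPM at the high dose and 6.17, 6.31 and 6.23 CPM at the low dose, a log2 change of 0.39 ± 0.11 (adjusted p = 0.00323). All high-dose libraries lay above the low-dose ones for CDX2, but 1 library was far above the others. Without Coptidis Rhizoma high replicate 1 its log2 change was 0.28 and the call ended (adjusted p = 0.0578). CDH17 and CEACAM7 were not called, with 95% intervals of -0.20 to 0.28 and -1.11 to 0.21 for the log2 change.

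At the medium dose of Coptidis Rhizoma, none of the 10 genes was called against the low dose. Medium against low dose called 0 of the 10 genes by edgeR, where 1.3% of all genes were called, and 0 with DESeq2. An unadjusted p under 0.05 was found for 5 of the 10, a threshold at which the share of all genes is not given here. CEACAM6 averaged 36.0 ± 1.16, 34.5 ± 3.04 and 11.2 ± 0.501 CPM at 11.6, 58 and 290 µg/mL (SD, n = 3 each). CEACAM5 averaged 6.68 ± 0.391, 6.52 ± 0.597 and 2.20 ± 0.415 CPM at these doses. HNF4A averaged 99.5 ± 3.30, 89.3 ± 2.10 and 62.6 ± 4.99 CPM, and its medium dose did not overlap the low dose although it was not called (log2 change -0.16, adjusted p = 0.446). In a fit of only the 6 libraries compared HNF4A (-0.16, adjusted p = 0.0233) and CEACAM1 (-0.14, adjusted p = 0.0480) were called lower. Ribosomal protein genes, an indicator of RNA makeup, took 6.71%, 5.94% and 6.03% of counts in the 3 high-dose libraries and 4.91%, 5.16% and 4.88% in the 3 low-dose libraries. Their part in these changes was not tested.

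Against vehicle, Coptidis Rhizoma high also called 8 of the 10 genes, 2 higher and 6 lower, where 53.8% of all genes were called (26.6% higher and 27.1% lower). The log2 changes were -1.63 ± 0.07 for CEACAM6, -1.64 ± 0.14 for CEACAM5, -0.63 ± 0.06 for CEACAM1, -1.96 ± 0.29 for FABP1, -0.62 ± 0.07 for HNF4A and -0.46 ± 0.04 for VIL1. They were 0.25 ± 0.04 for KRT20 and 0.49 ± 0.12 for CDX2. Coptidis Rhizoma medium called 2 genes, both higher, where 6.32% of all genes were called (3.63% higher and 2.69% lower): CDX2 at 0.43 ± 0.12 (adjusted p = 0.0200) and CEACAM7 at 1.14 ± 0.33 (adjusted p = 0.0252). CEACAM7 had 23, 23 and 13 counts at the medium dose and 10, 10 and 7 counts in vehicle. Its call ended without medium replicate 1 or 2 or Vehicle replicate 2 or 3 (adjusted p = 0.0634 to 0.128). The CDX2 call ended without medium replicate 1 or 2 or Vehicle replicate 1 (adjusted p = 0.0646 to 0.106), and also without the 4 libraries that stood apart (0.0579). Both calls ended in a fit of only the 6 libraries compared (0.0551 for CDX2 and 0.0767 for CEACAM7), and that of CEACAM7 with no filter (0.0699).

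Fresh ginger raised CEACAM5, CEACAM6 and KRT20 at its high dose. High against low dose called 3 of the 10 genes, all higher, where 1.79% of all genes were called (1.21% higher and 0.584% lower). That share is 298 genes, and the number was 1305 without Fresh ginger low replicate 2, 123 and 154 without low replicate 1 and 3, and 152 and 116 without high replicate 2 and 3. CEACAM5 had 9.97, 8.43 and 10.9 CPM at the high dose, against 5.40, 6.42 and 5.08 CPM at the low dose, a log2 change of 0.80 ± 0.13 (adjusted p = 6.86e-05). CEACAM6 had 45.5, 44.3 and 48.0 CPM at the high dose and 36.0, 32.8 and 34.7 CPM at the low dose, a log2 change of 0.42 ± 0.07 (adjusted p = 3.80e-05). KRT20 had 302, 283 and 307 CPM at the high dose and 254, 254 and 271 CPM at the low dose, a log2 change of 0.20 ± 0.04 (adjusted p = 0.0102). The doses did not overlap for any of the 3 genes. The KRT20 call ended without Fresh ginger high replicate 3 (adjusted p = 0.0654) or low replicate 1 (0.0579). In a fit of only the 6 libraries compared, all 3 calls ended, with adjusted p of 0.0759 for CEACAM5, 0.0780 for CEACAM6 and 0.595 for KRT20 and nearly the same log2 changes. CDX2 averaged 4.28 ± 0.495 CPM at the high dose and 5.87 ± 0.324 CPM at the low dose without overlap but was not called (log2 change -0.46 ± 0.14, adjusted p = 0.0742). CDH17, at 0.40 ± 0.13 (adjusted p = 0.12), was called without Fresh ginger low replicate 2, with a log2 change of 0.50. VIL1, at -0.14 ± 0.04 (adjusted p = 0.0661), was called without Fresh ginger low replicate 1, with -0.18, and likewise without the 4 libraries that stood apart (-0.18, adjusted p = 0.00669) and with the DESeq2 Wald test (0.0313).

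Against vehicle, Fresh ginger high called 4 of the 10 genes, 3 higher and 1 lower, where 2.08% of all genes were called (1.31% higher and 0.771% lower). CEACAM6 changed by 0.41 ± 0.06, CEACAM5 by 0.51 ± 0.12, KRT20 by 0.22 ± 0.04 and VIL1 by -0.17 ± 0.04. The CEACAM5 call ended without high replicate 3 (adjusted p = 0.125) or Vehicle replicate 1 (0.116). The VIL1 call ended without high replicate 2 (0.117) or Vehicle replicate 2 or 3 (0.0602 and 0.0877). In a fit of only the 6 libraries compared the calls of CEACAM5 (0.0981), KRT20 (0.138) and VIL1 (0.196) ended, and with no filter that of VIL1 (0.144).

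Ginger raised CEACAM5, CEACAM6 and KRT20 and lowered VIL1 at its high dose, with calls that rested on single libraries. High against low dose called 4 of the 10 genes, 3 higher and 1 lower, where 0.915% of all genes were called (0.518% higher and 0.397% lower). CEACAM5 had 7.07, 6.95 and 9.73 CPM at the high dose and 6.60, 5.30 and 5.18 CPM at the low dose, a log2 change of 0.50 ± 0.12 (adjusted p = 0.0292). CEACAM6 had 38.2, 40.2 and 42.5 CPM at the high dose and 32.1, 33.0 and 35.3 CPM at the low dose, a log2 change of 0.27 ± 0.06 (adjusted p = 0.0211). KRT20 changed by 0.17 ± 0.04 (adjusted p = 0.0394) and VIL1 by -0.16 ± 0.04 (adjusted p = 0.0360). Although none of the 4 genes overlapped between doses, each call ended without any of several libraries. CEACAM5 lost its call without high replicate 3 or low replicate 2 or 3 (adjusted p = 0.157 to 0.287). CEACAM6 lost it without high replicate 2 or 3 or low replicate 1 or 2 (0.0803 to 0.251), and KRT20 without the same 4 libraries (0.0871 to 0.417). VIL1 lost it without high replicate 1, 2 or 3 or low replicate 1 (0.0512 to 0.253). In a fit of only the 6 libraries compared none of the 4 was called (adjusted p = 0.224 to 0.405). Without the 4 libraries that stood apart the KRT20 change was 0.12 and not called (adjusted p = 0.234). Against vehicle Ginger high called KRT20 alone, at 0.20 ± 0.04, where 0.789% of all genes were called (0.542% higher and 0.247% lower), and this call ended without high replicate 2 (adjusted p = 0.176) or Vehicle replicate 2 (0.113). It also ended without the 4 libraries that stood apart (0.17, adjusted p = 0.114), with no filter (0.209) and in a fit of only the 6 libraries compared (0.887).

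The change with dose did not pass the threshold of a difference between ginger and fresh ginger for any of the 10 genes by edgeR, where 0% of all genes did, nor with DESeq2, and 1 of the 10 had an unadjusted p under 0.05. The count over all genes rested on 1 library, since it was 1053 without Fresh ginger low replicate 2, and it was 602 with no filter. The 10 genes had 0 calls in these settings too. The 95% interval of the difference, ginger minus fresh ginger, was -0.66 to 0.07 for CEACAM5 and -0.34 to 0.04 for CEACAM6. It was -0.15 to 0.11 for KRT20 and -0.14 to 0.09 for VIL1.

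Villin, the transmembrane CEACAM1 and KRT20 were higher with wortmannin than in vehicle, and none of the lipid-anchored antigens passed the threshold. Each of these groups has a code set of its own, so treatment and code set cannot be told apart here. Wortmannin called 3 of the 10 genes against vehicle, all higher, where 20.6% of all genes were called (9.72% higher and 10.8% lower). VIL1 had 243, 247 and 252 CPM with wortmannin, against 174, 184 and 192 CPM in vehicle, a log2 change of 0.43 ± 0.04 (adjusted p = 4.07e-12). CEACAM1 had 172, 169 and 169 CPM with wortmannin, against 119, 130.4 and 132 CPM in vehicle, a log2 change of 0.42 ± 0.06 (adjusted p = 9.07e-08). Both genes were higher in each wortmannin library than in any other library of the 60. KRT20 had 289, 283 and 301 CPM with wortmannin and 262, 248 and 257 CPM in vehicle, a log2 change of 0.19 ± 0.04 (adjusted p = 0.00172). The 3 calls held without any 1 of the 6 libraries. CEACAM6 averaged 31.2 ± 2.00 CPM with wortmannin and 34.7 ± 1.2 CPM in vehicle and was not called (log2 change -0.15 ± 0.07, adjusted p = 0.0915). FABP1 had 1.15, 1.08 and 1.17 CPM with wortmannin and 2.01, 1.73 and 1.76 CPM in vehicle, which do not overlap, but it also missed the threshold (log2 change -0.69 ± 0.26, adjusted p = 0.0548). In a fit of only the 6 libraries compared FABP1 was called, with an adjusted p of 0.0325. The 95% intervals were -0.38 to 0.12 for CEACAM5, -0.06 to 0.21 for HNF4A and -0.02 to 0.48 for CDX2.

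**Figure D2:**
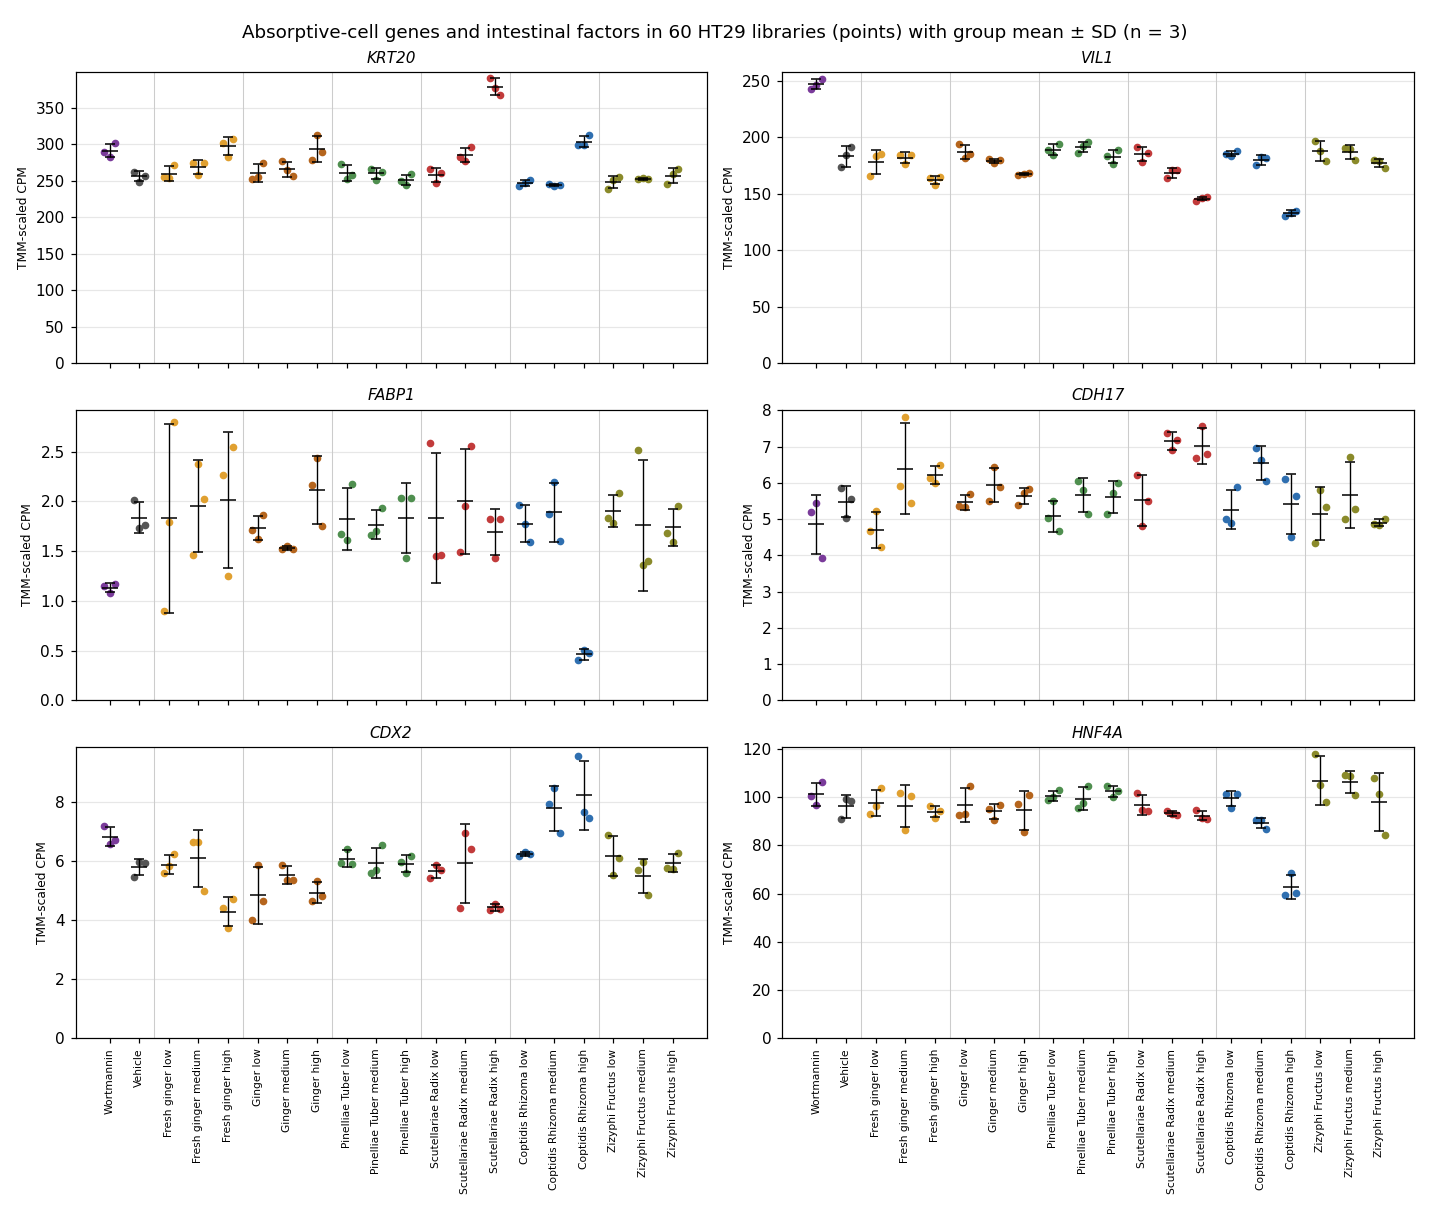
Level of KRT20, VIL1, FABP1, CDH17, CDX2 and HNF4A in each of the 60 libraries, in TMM-scaled CPM on axes that start at 0, with points for libraries and bars for the group mean ± SD (n = 3). KRT20 stood highest at 379 CPM in Scutellariae Radix high, VIL1 at 247 CPM in wortmannin, and FABP1 and HNF4A lowest at 0.462 and 62.6 CPM in Coptidis Rhizoma high.

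Pinelliae Tuber and Zizyphi Fructus at all doses, the low doses of the other extracts and the medium doses of the gingers called none of the 10 genes against vehicle. Of the comparisons with vehicle, 12 had a count of 0 by edgeR and by DESeq2. All genes were called at 0% in fresh ginger low and medium, ginger low and Zizyphi Fructus medium. They were called at 0.012% in ginger medium, Pinelliae Tuber low and Zizyphi Fructus low, at 0.0181% in Zizyphi Fructus high, and at 0.0482% and 0.187% in Pinelliae Tuber medium and high. The share was 0.126% in Scutellariae Radix low and 0.397% in Coptidis Rhizoma low. At an unadjusted p under 0.05, Zizyphi Fructus low and medium each had 2 of the 10 genes, fresh ginger low and ginger low had 1, and the other 8 comparisons had 0. Inside the extracts, Zizyphi Fructus high against low called 0, where 0.0482% of all genes were called, and 2 of the 10 had an unadjusted p under 0.05. That share is 8 genes and depends on the setting: it was 4375 genes without Zizyphi Fructus high replicate 1, 1603 without high replicate 2, 1982 with no filter and 1185 with DESeq2. Medium against low dose called 0 in fresh ginger, ginger, Pinelliae Tuber and Zizyphi Fructus, where 0% of all genes were called in each. In these, fresh ginger had 1 gene with an unadjusted p under 0.05, the others had 0, and DESeq2 called 0.

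Vehicle and the 12 groups with no call against it give a range of levels. The groups were chosen by having no call of these same genes, so narrow ranges follow in part from that choice. Over these 13 groups, mean CEACAM6 lay between 33.0 and 36.7 CPM, CEACAM5 between 5.63 and 6.88, and CEACAM1 between 125 and 140.3. KRT20 lay between 247 and 269 CPM, VIL1 between 177 and 192, and HNF4A between 94.1 and 107. Among the scarcer genes CDX2 lay between 4.83 and 6.24 CPM, CDH17 between 4.71 and 6.40, FABP1 between 1.53 and 1.96 and CEACAM7 between 0.316 and 0.649. In Zizyphi Fructus, CEACAM6 had 35.8, 37.8 and 36.5 CPM at the high dose and 32.4, 34.3 and 34.8 CPM at the low dose, without overlap but not called (log2 change 0.12 ± 0.06, adjusted p = 0.236). HNF4A had 108, 102 and 84.5 CPM at the high dose and 118, 105 and 97.9 CPM at the low dose, with overlap. Without Zizyphi Fructus high replicate 1 it was called, at a log2 change of -0.22 (adjusted p = 0.0266).

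**Figure D3:**
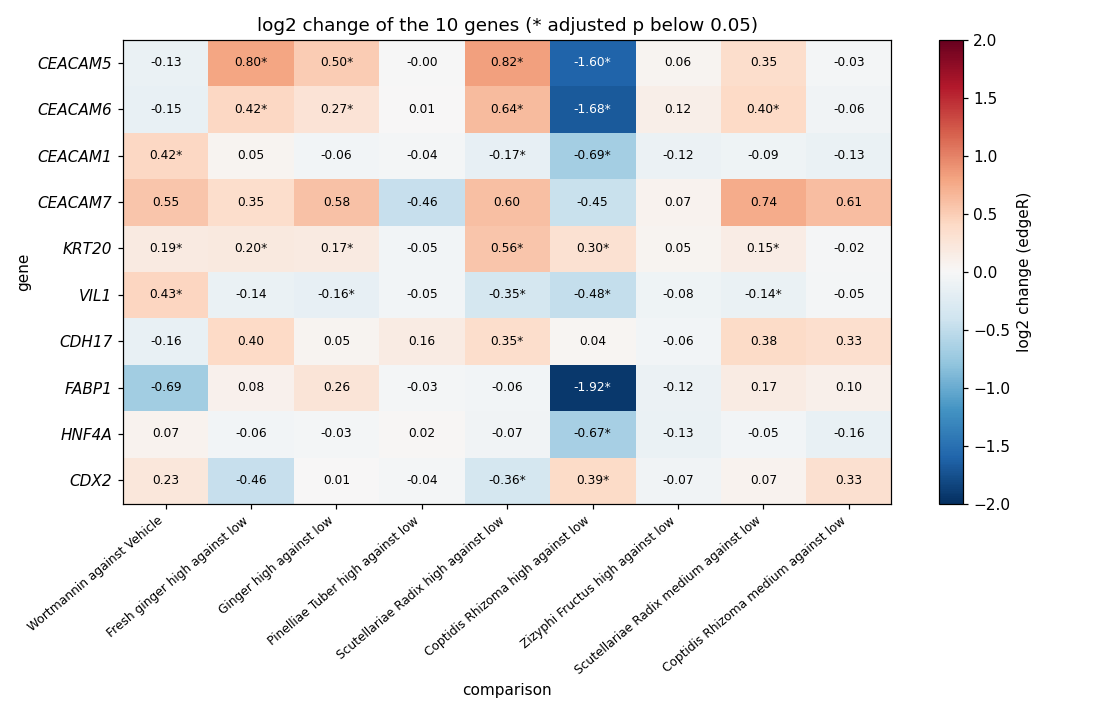
Log2 change of the 10 genes (rows) in wortmannin against vehicle, in the high against the low dose of each extract and in the medium against the low dose of Scutellariae Radix and Coptidis Rhizoma (columns), with red for higher, blue for lower and a star for an adjusted p below 0.05 (edgeR). CEACAM5, CEACAM6 and KRT20 were called higher in fresh ginger, ginger and Scutellariae Radix, and CEACAM5 and CEACAM6 lower in Coptidis Rhizoma, where KRT20 was called higher.

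Seen by gene, KRT20 was called in 12 of the 33 comparisons, always higher. CEACAM6 was called in 10, 8 higher and 2 lower, VIL1 in 9, 1 higher and 8 lower, and CEACAM5 in 8, 6 higher and 2 lower. CDX2 was called in 5, 3 higher and 2 lower, and CEACAM1 in 4, 1 higher and 3 lower. CDH17 was called in 3, all higher, FABP1 and HNF4A in 2 each, all lower and all in Coptidis Rhizoma high, and CEACAM7 in 1. These counts are a description, since the comparisons share libraries. In the order of the 20 group means of CEACAM6, most neighbours overlapped in their libraries and 4 of the 19 neighbouring pairs did not: Scutellariae Radix high above Fresh ginger high, Scutellariae Radix medium above Ginger high, Ginger high above Zizyphi Fructus high, and Wortmannin above Coptidis Rhizoma high. For CEACAM5 there were 3 such pairs, with Scutellariae Radix high above Fresh ginger high, Fresh ginger high above Scutellariae Radix medium, and Fresh ginger low above Coptidis Rhizoma high. For VIL1 there were 5, for CEACAM1, KRT20, FABP1 and HNF4A 2 each, for CDX2 1, and for CDH17 and CEACAM7 0.

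The ratio of CEACAM6 to CEACAM5 CPM varied less than either gene but was not constant. Its mean lay between 4.65 in Scutellariae Radix high and 6.20 in fresh ginger low over the 20 groups. It was 4.59 to 4.74 in the libraries of Scutellariae Radix high, below the 5.35 to 5.59 of its medium and the 4.83 to 5.64 of its low dose. In fresh ginger high the ratio was 4.39 to 5.25 and in fresh ginger low 5.12 to 6.82, which overlap. In Coptidis Rhizoma high, where both genes were lowest, it averaged 5.17, and in vehicle 5.07. Over the 20 group means of log2 CPM the Pearson correlation of the pair was 0.97, the highest that either gene had with any gene tested. The 20 points share the library scaling and include several doses of 1 extract, so this is a description. Among them Coptidis Rhizoma high lay far below the rest, with CEACAM6 at 11.2 CPM against 31.2 in the next lowest group, wortmannin. How far the correlation rests on this 1 group was not tested. By the same measure UXS1 (0.95) and SLCO4A1 (0.95) came next for CEACAM5, and PTDSS1 (0.97) and CDK2 (0.97) for CEACAM6. CEACAM1 was most like PAM (0.96), B3GAT1-DT (0.95) and EXOC4 (0.95), and its own correlation with CEACAM6 was 0.60 and with VIL1 0.89. VIL1 was most like SHANK2 (0.97), the unnamed ENSG00000260337 (0.96) and GBP2 (0.96). KRT20 was most like NTSR1 (0.95) and SEC23B (0.92), and its correlation with CEACAM6 was 0.10.

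The factors and the scarcer genes had other neighbours. Coptidis Rhizoma high lay far below the other groups for HNF4A, at 62.6 CPM against 89.3 in the next lowest, Coptidis Rhizoma medium. For FABP1 it lay at 0.462 CPM, against 1.13 in the next lowest, wortmannin. How far the correlations rest on this 1 group was not tested. HNF4A was most like MLEC (0.98), CD44 (0.97) and the goblet cell mucin MUC2 (0.97), and its correlation with CEACAM1 was 0.89. FABP1 was most like SORD (0.96), VOPP1 (0.96) and CHEK2 (0.96), with 0.80 to HNF4A. CDX2 was most like TSPAN31 (0.87), PAQR6 (0.87) and MTMR9LP (0.86), and was negatively related to CEACAM5 (-0.72) and CEACAM6 (-0.70). CDH17 was most like COA7 (0.87), MBP (0.84) and DSG2 (0.84), and CEACAM7 like TTC22 (0.84), RIOX1 (0.80) and RIN1 (0.73).

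Other genes of the absorptive programme did not all move with the 10 genes. In Scutellariae Radix high against low dose, 4 of 15 tested brush border genes (of 17 listed) fell and 0 rose, with a median log2 change of -0.10 against -0.01 over all genes. Over all genes 7.92% were called higher and 8.42% lower, beside which the counts of these short lists are to be read. PDZK1, a scaffold of apical transporters, had 11.98 CPM at the high dose and 19.4 CPM at the low dose (log2 change -0.69 ± 0.07), followed by CALML4 (-0.31 ± 0.06), ANKS4B (-0.30 ± 0.07) and USH1C (-0.26 ± 0.06), parts of the complex that links microvillus tips. Of 8 tested enzymes and transporters (of 22 listed) 2 fell, the sodium-glucose transporter SLC5A1 (11.8 CPM at the high dose, 18.6 CPM at the low dose, log2 change -0.66 ± 0.07) and the sucrase-isomaltase SI (-1.70 ± 0.48, at 0.112 and 0.425 CPM), and the list's median was 0.02. Of 9 tested mature colonocyte genes (of 16 listed) 3 fell, with a median of -0.59: PLAC8 (-0.92 ± 0.15), CLCA4 (-1.77 ± 0.33) and the carbonic anhydrase CA2 (-0.44 ± 0.09).

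The intestinal transcription factors of Scutellariae Radix high against low dose split, with 5 of 15 tested (of 20 listed) higher, 3 lower and a median of -0.03. HNF4G, the paralog of HNF4A, fell by 0.57 ± 0.07 on the log2 scale to 38.7 CPM, against 57.4 CPM at the low dose. The vitamin D receptor VDR rose by 0.33 ± 0.05 and the zinc finger factor KLF4 by 0.65 ± 0.10. Of 10 keratins and surface proteins 2 fell, TSPAN8 (-0.60 ± 0.10) and GPA33 (-0.47 ± 0.15), with a median of -0.09. Of 7 tested goblet cell markers (of 9) 4 fell and 0 rose, AGR2 (-0.54 ± 0.08), ATOH1 (-0.93 ± 0.14), REG4 (-0.57 ± 0.10) and FCGBP (-0.66 ± 0.12). The summed level of the 9 goblet markers was 224 to 240.3 CPM at the high dose and 312 to 323 CPM at the low dose, and their part in the changes of the 10 genes was not tested.

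In Coptidis Rhizoma high against low dose, brush border genes were called in both directions, 4 higher and 7 lower of 15 tested, with a median of -0.15 against 0.00 over all genes. Over all genes 27.1% were called higher and 25.3% lower, so 4 of 15 higher is near the share of all genes. The cadherin CDHR5 rose to 38.5 CPM at the high dose, against 17.1 CPM at the low dose (log2 change 1.17 ± 0.08), whereas PDZK1 (-1.05 ± 0.07), ANKS4B (-1.06 ± 0.08) and CALML4 (-0.42 ± 0.06) fell. Of 8 tested enzymes and transporters, the peptidase DPP4 rose (0.84 ± 0.07), while SLC5A1 (-0.67 ± 0.07), the triglyceride-forming enzyme DGAT1 (-0.35 ± 0.08) and SI (-1.14 ± 0.47, groups overlapping) fell. Mature colonocyte genes gave 1 higher, PLAC8 (1.3 ± 0.12), and 5 lower of 9 tested, among them SLC26A2 (-0.88 ± 0.12), CA2 (-0.55 ± 0.09) and CLCA4 (-1.62 ± 0.31). The medians of these lists were -0.41 and -0.55.

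Among the factors, 4 rose and 6 fell of 15 tested in Coptidis Rhizoma, with a median of -0.10, and the number that rose is again near the share of all genes. KLF4 reached 27.6 CPM at the high dose, against 6.93 CPM at the low dose (1.99 ± 0.09), and PRDM1 8.17 CPM, against 1.55 CPM (2.39 ± 0.20). KLF5 rose by 0.38 ± 0.04 on the log2 scale. Of 10 keratins and surface proteins 2 rose and 5 fell, with a median of -0.20, among the falls PHGR1 (-1.70 ± 0.11), GPA33 (-2.31 ± 0.18), TSPAN8 (-0.89 ± 0.10) and KRT19 (-0.55 ± 0.10). Of the other 8 CEACAM genes only CEACAM19 passed the filter, and it had 5.40 CPM at the high dose and 1.10 CPM at the low dose (log2 change 2.31 ± 0.21), against the direction of CEACAM1, CEACAM5 and CEACAM6. All 7 tested goblet markers fell, led by ATOH1 (-2.79 ± 0.17), MUC2 (-2.66 ± 0.22), FCGBP (-1.88 ± 0.13) and REG4 (-1.45 ± 0.10), and the summed level of the 9 listed was 147 to 155 CPM at the high dose and 315 to 320.3 CPM at the low dose. Of 6 tested stem cell markers 4 fell, LGR5 among them (-1.52 ± 0.06), and 2 rose. The part of these markers in the fall of the CEACAM genes, FABP1 and HNF4A was not tested.

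**Figure D4:**
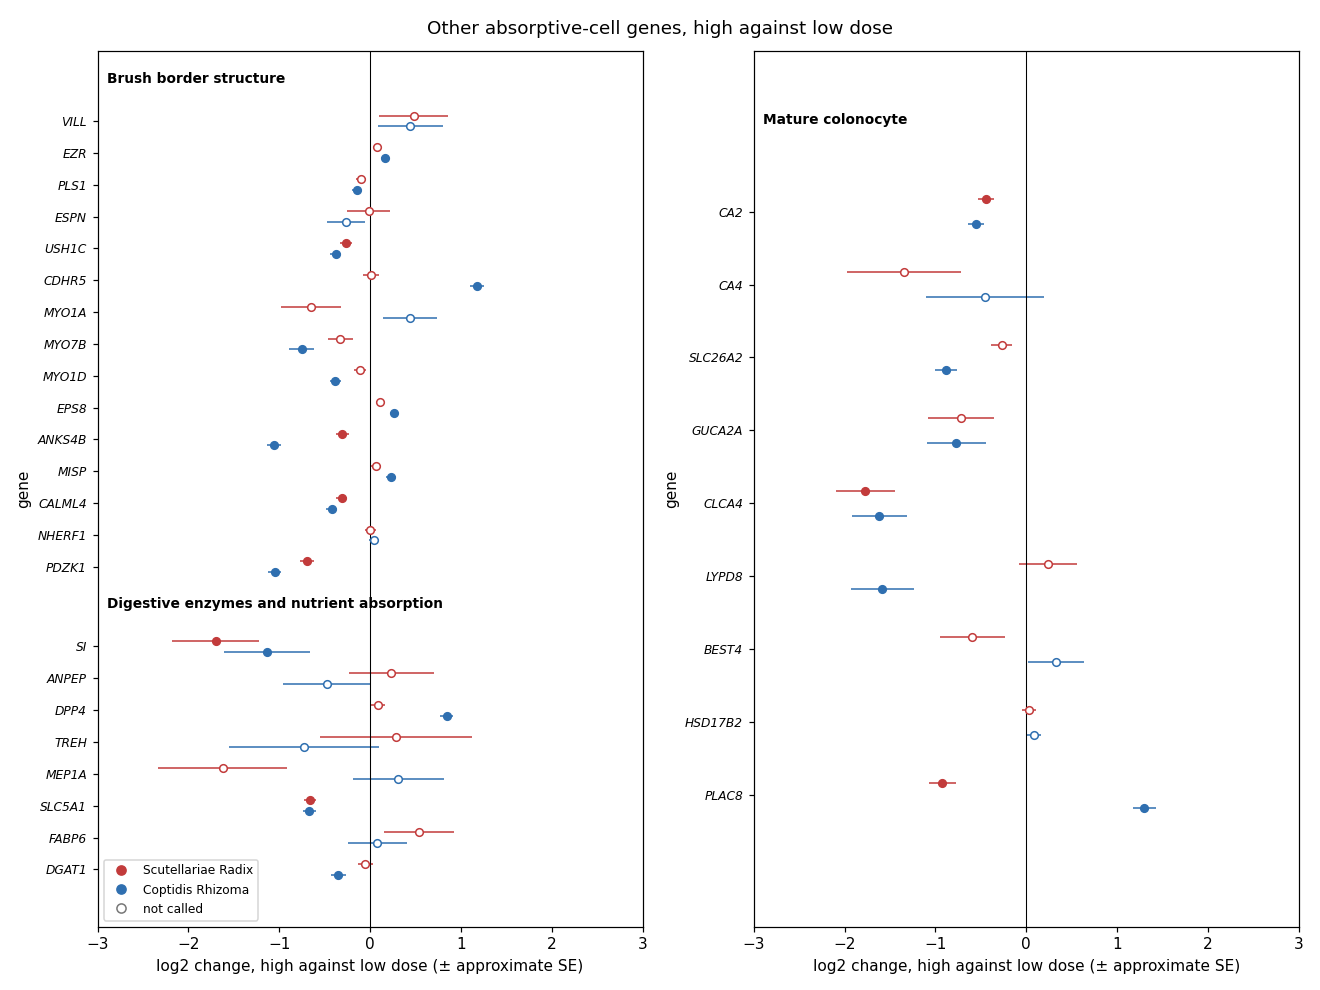
Log2 change, high against low dose, of the tested brush border, digestive and transport, and mature colonocyte genes (rows) in Scutellariae Radix (red) and Coptidis Rhizoma (blue), with bars for the approximate SE, filled points for an adjusted p below 0.05 (edgeR) and open points for genes not called. PDZK1, SLC5A1, CA2 and CLCA4 were among the genes called lower in both extracts, while CDHR5, DPP4 and PLAC8 were called higher in Coptidis Rhizoma.

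With wortmannin no gene of the brush border, enzyme and colonocyte lists was called lower. Of 15 tested brush border genes 5 rose and 0 fell, with a median of 0.25 against 0.00 over all genes, of which 9.72% were called higher and 10.8% lower: MYO7B (9.70 CPM with wortmannin, 5.56 CPM in vehicle, log2 change 0.78 ± 0.13), CDHR5 (0.44 ± 0.08), PDZK1 (0.38 ± 0.07), MYO1D (0.25 ± 0.06) and USH1C (0.25 ± 0.06). Of 8 tested enzymes and transporters 3 rose and 0 fell, DPP4 (0.43 ± 0.08), SLC5A1 (0.32 ± 0.07) and DGAT1 (0.24 ± 0.08), with a median of 0.24. Of 9 mature colonocyte genes the sulfate transporter SLC26A2 rose (0.47 ± 0.12), with a median of 0.03. Factors gave 2 higher and 2 lower of 15, with CDX1 at 0.781 CPM with wortmannin and 1.44 CPM in vehicle (-0.83 ± 0.27), KLF5 at -0.16 ± 0.04 and VDR at 0.14 ± 0.05. Of 10 keratins and surface proteins 3 rose and 1 fell, EPCAM (-0.29 ± 0.08). LGR5, a marker of crypt stem cells, also rose, to 46.7 CPM with wortmannin, against 29.2 CPM in vehicle (0.67 ± 0.06). The summed level of the 9 goblet markers was 296 to 310.3 CPM with wortmannin and 338 to 377 CPM in vehicle, with AGR2 called lower (-0.41 ± 0.08, 169 CPM with wortmannin and 225 CPM in vehicle) and FCGBP called higher (0.40 ± 0.12, 40.4 CPM with wortmannin and 30.4 CPM in vehicle). The summed level of the 8 stem cell markers was 471 to 477 CPM with wortmannin and 390 to 445 CPM in vehicle. Their part in the rise of VIL1 and CEACAM1 was not tested.

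In the gingers few genes of these lists were called. Fresh ginger high against low dose called 1 of 15 brush border genes, PDZK1 (16.0 CPM at the high dose, 19.8 CPM at the low dose, log2 change -0.30 ± 0.08), and none of the enzyme, colonocyte, factor and surface lists, which had 1 gene each with an unadjusted p under 0.05. Of the 7 goblet markers 3 fell, REG4 (-0.72 ± 0.10), ATOH1 (-0.54 ± 0.14) and AGR2 (-0.29 ± 0.08), and the summed level of the 9 listed was 264 to 271 CPM at the high dose and 327 to 342 CPM at the low dose. Over all genes 1.21% were called higher and 0.584% lower in fresh ginger, beside which the counts of these short lists are to be read. Ginger high against low dose called none of the genes of these lists by edgeR, where 0.915% of all genes were called. In it 3 brush border, 2 factor, 1 surface and 4 goblet genes had an unadjusted p under 0.05. The share of all genes at that threshold is not given here.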

How the data were processed

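Messenger RNA libraries of HT29 cells were made with a directional MGIEasy kit and read as pairs of 100 bases on an MGI instrument, per the labels' protocols. The submitters' processing notes name RSEM 1.3.3 and STAR 2.7.3a, besides FastQC 0.11.9 and Trim Galore 0.6.5, with the GRCh38/hg38 genome; the annotation release is not given in the sources used here. The deposited values are the authors' expected counts per Ensembl gene, which share reads that fit several genes; 8.75% were not whole, and all were rounded. Another 210 columns belong to samples not analysed here.

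Of 60675 genes, 16608 passed edgeR's filterByExpr. TMM scaling and edgeR 4.0.16 quasi-likelihood tests (R 4.3.3) were fitted once over the 60 libraries with 20 groups, 40 residual degrees of freedom, and Benjamini-Hochberg adjustment over all genes; 33 comparisons were made. Standard errors are approximate (log2 change over the root of F). DESeq2 1.42.0 was an alternative. Depth was 11.1 to 34.4 M counts per library (M, 1000000). No libraries were copies of each other: the smallest chi-square per gene within a group was 2.23. Scripts were tested on simulated data. The 10 genes and all lists were chosen with earlier results of these data known. Genes named from lists are up to 4 of the called genes with the smallest p per list and comparison; others were named to complete a count after their values were seen, and some genes that this rule picks are not reported here. Libraries with the same replicate number deviated from their group means with correlations of -0.37 to 0.34. All 3 exceeded 0.1 in 1 of 31 comparisons, that of vehicle with fresh ginger low (0.34, 0.11 and 0.11). The main fit did not take the numbers as pairs in any comparison, that one included. The alternatives were other scaling, no filter, a fit of only the libraries compared, the replicate block, DESeq2, and leaving out each library or the 4 that stood apart.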

Additional observations from a re-analysis of the deposited data

Results flagged for a closer look

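The change with dose differed between Scutellariae Radix and Pinelliae Tuber, by a test of the difference itself in edgeR, for 4 of the 10 genes. Of all genes tested 6.32% passed the same threshold (2.99% higher and 3.33% lower). The difference in log2 change, Scutellariae Radix minus Pinelliae Tuber, was 0.82 for CEACAM5, 0.63 for CEACAM6, 0.61 for KRT20 and -0.30 for VIL1.

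In 3 genes the high against the low dose moved all libraries one way in 1 extract and the opposite way in another. This difference was not tested, since the doses of Coptidis Rhizoma are not those of the other extracts. How many of all genes tested do the same is not given here, and Coptidis Rhizoma high against low called 52.4% of all genes. CEACAM5 had a log2 change of 0.80 in fresh ginger, 0.50 in ginger and 0.82 in Scutellariae Radix, beside -1.60 in Coptidis Rhizoma. CEACAM6 had 0.42 in fresh ginger, 0.27 in ginger, 0.64 in Scutellariae Radix and 0.12 in Zizyphi Fructus, beside -1.68 in Coptidis Rhizoma. CDX2 had -0.46 in fresh ginger and -0.36 in Scutellariae Radix, beside 0.39 in Coptidis Rhizoma. The CDX2 change in fresh ginger and the CEACAM6 change in Zizyphi Fructus were not called by edgeR.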

How the results depend on the processing

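Of the 56 calls of the 10 genes over all comparisons, none changed direction under the alternatives run. With DESeq2's size factors 55 were kept, with the DESeq2 Wald test 54 of the 55 that had an adjusted p (CDX2 in Scutellariae Radix high against low was lost), with no filter on low counts 43, with only the libraries compared 39, and without the 4 libraries that stood apart 53. The replicate block kept 56 of 56. With 1 library left out, 291 of 360 were kept. With no filter, the number of the 10 genes called was 1 in Coptidis Rhizoma medium against vehicle, 1 in ginger high against low, 0 in ginger high against vehicle, 4 in Scutellariae Radix high against low and 1 in its medium against low dose. With only the libraries compared it was 2 in Coptidis Rhizoma medium against low and 0 in that dose against vehicle, 0 in fresh ginger high against low and 1 against vehicle, 0 in ginger high against low and 0 against vehicle, and 1 in Scutellariae Radix medium against low and 1 against vehicle. DESeq2 called 1 in Coptidis Rhizoma medium against vehicle, and without the 4 libraries the numbers were 1 there and 0 in ginger high against vehicle. Leaving out 1 library gave 7 to 8 in Coptidis Rhizoma high against low, 0 to 2 in its medium dose against vehicle, 2 to 4 in fresh ginger high against low and 3 to 4 against vehicle, 0 to 3 in ginger high against low and 0 to 1 against vehicle. It gave 4 to 5 in Scutellariae Radix high against low, 4 to 6 against vehicle, 1 to 3 for its medium dose against low and 1 to 3 against vehicle, and 0 to 1 in Zizyphi Fructus high against low. Calls over all genes moved too. No filter gave 436 in ginger high against low (152 in the main fit) and 242 against vehicle (131). Only the libraries compared gave 34 and 10 there, and 23 in fresh ginger high against low (298) and 74 against vehicle (346). It gave 482 in Coptidis Rhizoma medium against low (216) and 489 against vehicle (1049), and 357 in Scutellariae Radix medium against vehicle (1103). Other such counts are not reported here. Over all genes, leaving out 1 library gave 2109 to 3295 calls in wortmannin (3414 with all), 128 to 449 in fresh ginger high against vehicle (346), 63 to 154 in ginger high against low (152) and 66 to 93 against vehicle (131), 606 to 884 in Coptidis Rhizoma medium against vehicle (1049), and 306 to 438 in Scutellariae Radix medium against low (556) and 538 to 1238 against vehicle (1103). Fits with fewer libraries have fewer residual degrees of freedom, and the cause of the losses was not tested in any setting. CEACAM7, with 3 to 23 counts per library, and FABP1, with 9 to 72, have wide intervals at this depth.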

Other observations

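Some markers of rarer intestinal cell types also differed between groups. With wortmannin, the tuft cell factor POU2F3 and the channel TRPM5 were called higher by edgeR, 2 of 3 tested tuft cell markers, with TRPM5 at 2.33 CPM with wortmannin and 0.912 CPM in vehicle. The Paneth cell enzyme LYZ rose by 0.40 on the log2 scale, while NEUROG3, the factor of enteroendocrine precursors, fell by 0.96. In Coptidis Rhizoma high against low dose NEUROG3 had 0.116 CPM at the high dose and 1.05 CPM at the low dose. The sum of the 8 enteroendocrine markers, NEUROG3 included, averaged 0.957 CPM at that high dose and 1.81 CPM at that low dose. The sum thus fell by less than NEUROG3 alone, and 2 of the 8 were tested. In Scutellariae Radix high against low dose TRPM5 had 0.382 CPM at the high dose and 1.27 CPM at the low dose, and the stem cell marker LGR5 fell by 0.59 on the log2 scale. The summed level of the 8 stem cell markers was 466 to 483 CPM at that high dose and 423 to 462 CPM at the low dose, so the sum was higher where LGR5 was lower. Of 10 stromal, endothelial and immune markers 3 were tested, and 1 was called in each of these comparisons. CD68 was higher with wortmannin and with Scutellariae Radix, and PECAM1 lower with Coptidis Rhizoma. Over all genes 20.6% were called with wortmannin, 16.3% in Scutellariae Radix and 52.4% in Coptidis Rhizoma, beside which the counts of these short lists are to be read.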
